A study of Homo sapiens with 6 samples.

Results

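VprBP, the product of DCAF1, is studied in these cells as a kinase for threonine 120 of histone H2A, and the 8 genes described here encode other known writers of that mark and the centromere proteins that read it or work beside it. They are BUB1 and VRK1, the shugoshin genes SGO1 and SGO2, and AURKB, INCENP, CDCA8 and BIRC5, which encode the chromosomal passenger complex. The genes were chosen by name, and all 8 were found among the 21494 genes of the table and passed the filter on low counts that left 16756 genes for testing. RNA-seq was carried out on 6 samples. Of these, 3 are labelled wild type and carried the control shRNA (Control sh), and the other 3 are labelled DCAF1 knockdown (VprBP sh) and carried a single lentiviral shRNA against the coding region of VprBP, with puromycin selection of both. The cell line is labelled G361, a human melanoma line, with LD611 in the source field. The labels do not say whether the 3 samples of a group were separate cultures, so that p-values measure only the spread between these samples. In several of the 8 genes replicates 2 and 3 of a group lay close together, with replicate 1 apart. If those replicates shared a culture, the standard deviations and p-values given for n = 3 rest on fewer independent samples.

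BUB1 is a kinase of the spindle checkpoint that sits at kinetochores in mitosis and phosphorylates H2A at threonine 120. Shugoshins bind the marked nucleosomes and keep sister chromatids joined at the centromere until anaphase, and they help to bring in the passenger complex, in which the kinase Aurora B (AURKB) is held by the scaffold INCENP and targeted by borealin (CDCA8) and survivin (BIRC5). VRK1 is a kinase of chromatin that has also been described to phosphorylate H2A at this residue. Most of these genes are transcribed mainly in G2 and mitosis, and their mRNAs are low in cells that do not divide.

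The promoters of the genes are shown to describe letters known from the promoters of late cell cycle genes. Showing them had been planned only for the case that the genes moved together, which they did not. The windows run from 150 bases before the RefSeq transcript start to base 20 of the transcript (build GRCh38.p14, read 5′ to 3′ on the strand of the gene). Capitals mark CCAAT, on either strand, and 3 forms of the cell cycle homology region, TTTGAA on either strand and the palindromes TTTAAA and TTCGAA. In CDCA8 the last base of TTTGAA is also the first base of a CCAAT read on the opposite strand.
CDCA8, chr1:37692366-37692535, plus strand: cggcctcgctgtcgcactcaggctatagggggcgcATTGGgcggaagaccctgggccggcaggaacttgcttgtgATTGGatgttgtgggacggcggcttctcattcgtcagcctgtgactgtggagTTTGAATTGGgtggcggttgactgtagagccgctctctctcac
SGO1, chr3:20186187-20186356, minus strand: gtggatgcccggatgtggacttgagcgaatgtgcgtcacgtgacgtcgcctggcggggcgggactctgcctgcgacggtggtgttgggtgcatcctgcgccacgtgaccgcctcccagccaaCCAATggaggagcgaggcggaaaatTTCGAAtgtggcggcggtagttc
SGO2, chr2:200526057-200526226, plus strand: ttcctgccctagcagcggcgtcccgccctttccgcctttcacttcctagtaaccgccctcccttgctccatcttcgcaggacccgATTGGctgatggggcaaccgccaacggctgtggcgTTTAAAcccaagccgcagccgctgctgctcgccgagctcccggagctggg
BUB1, chr2:110678044-110678213, minus strand: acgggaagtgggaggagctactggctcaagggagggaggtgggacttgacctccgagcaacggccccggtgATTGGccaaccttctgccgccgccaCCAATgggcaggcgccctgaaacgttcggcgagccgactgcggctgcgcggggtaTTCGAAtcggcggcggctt
INCENP, chr11:62123861-62124030, plus strand: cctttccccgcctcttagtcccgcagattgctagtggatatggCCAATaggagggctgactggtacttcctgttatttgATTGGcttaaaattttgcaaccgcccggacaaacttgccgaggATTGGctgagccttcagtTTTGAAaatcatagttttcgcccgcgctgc
RefSeq windows were matched for 6 of the 8 genes, and VRK1 and BIRC5 were not matched. Within 300 bases, from 250 before to 50 after the start, 5 of these 6 genes held a homology region form, against 25.1% of 35116 RefSeq promoter windows of that length, and all 6 held CCAAT, against 34.6%. The first base of the homology region form lay at position -23 in CDCA8, -3 in SGO1, -30 in SGO2, 2 in BUB1 and -10 in INCENP, counted from 1 at the transcript start and from -1 before it. CDCA8 and INCENP thus had the same form, TTTGAA, which 15.2% of windows held, and SGO1 and BUB1 shared TTCGAA, which 1.45% held. TTTAAA, the form in SGO2, was held by 12.2% of windows. AURKB had no such form in its windows, which however begin from starts 326 and 350 bases inside the start of its canonical GENCODE 44 transcript. Its CCAAT, at -129 and -153 from those starts, thus also lay past the canonical start. SGO2 and AURKB had more than 1 window, and a gene was counted if any of its windows held the letters. Of the genes that fell in VprBP sh, INCENP alone held a homology region form, as VRK1 had no window and AURKB no form. BUB1 passed the test in neither direction. The letters thus give no comparison between genes that rose and genes that fell. These letters are a description of the windows and show no bound factor.

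The total of counts per sample was 18195926 to 26883925, and 3 counts, taken as the limit of detection, correspond to 2.30 to 3.48 normalized counts, far below every value of the 8 genes. DCAF1 had 797, 971 and 838 normalized counts in Control sh replicates 1, 2 and 3 and 760.3, 507 and 481 in VprBP sh (log2 fold change -0.58, standard error (SE) 0.17, adjusted p = 0.0125 from edgeR), so that replicate 1 of VprBP sh lay close to the lowest control. RBM15B, which overlaps DCAF1 on the opposite strand, was 1.79-fold higher in VprBP sh. The groups also differed in markers of cell identity. Of 8 melanocyte lineage markers, 4 exceeded 3 counts in a sample. Their summed normalized counts, mostly of MITF, were between 199 and 236 in Control sh and between 244 and 308 in VprBP sh. MLANA and TYRP1 reached at most 5 and 4 counts, while TYR, DCT, SOX10 and S100B were not among the genes of the table. Of 11 urothelial and epithelial markers, 9 exceeded 3 counts, while KRT20 and UPK3A were not among the genes of the table. The sums of this list were between 109079.7 and 119579 in Control sh and between 37308 and 41412 in VprBP sh. In both groups these sums were thus far above those of the melanocyte list, and whether the cells match the label G361 was not tested. KRT7, CDH1 and EPCAM had at least 15710, 5011 and 3901 counts in every sample of both groups, while UPK1A reached at most 5. The sums of the urothelial and epithelial list were mostly KRT5 and KRT7, and the list went both ways, as 3 of its 8 tested genes rose and 5 fell. KRT5 had between 48190 and 73688 counts in Control sh samples and between 2582 and 4524 in VprBP sh samples, and UPK1B had 500 to 709 in Control sh and 0 in every VprBP sh sample, under the 3-count limit. The 3 that rose were PPARG, EPCAM and GATA3, whose counts were at most 7 in the Control sh samples and 1580, 1334 and 1873 in those of VprBP sh. Of 10 fibroblast and leukocyte markers, 6 exceeded 3 counts, with sums between 2044 and 2675 and between 592 and 1081. COL3A1, DCN, PTPRC and CD3E were not among the genes of the table. Mitochondrial genes took between 1.96% and 1.98% of Control sh counts and between 4.10% and 4.48% of VprBP sh counts. These values moved with the groups, and their part in the results below was not tested. With the cell line labelled G361 and the source LD611, a difference in the identity of the cells between the groups and the knockdown cannot be told apart in these 6 samples, and this holds for every fold change below. In RNA from whole cultures fewer cells of a type and less RNA per cell cannot be told apart.

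The 8 genes did not move as a block between VprBP sh and Control sh. CDCA8, SGO2 and SGO1 rose, VRK1, AURKB and INCENP fell, and BUB1 and BIRC5 did not pass the test. "Rose" and "fell" are used for an adjusted p-value under 0.05 in edgeR's quasi-likelihood test, with adjustment over all 16756 genes, and "called" for genes that in addition changed more than 2-fold, the cutoff of the study. With another test, the study reported far fewer genes past this cutoff than were called here. By the first measure 6 of 8 genes changed, where 76.4% of all genes tested did. By the second 2 of 8 changed, where 46.4% did. The called genes were CDCA8, higher, and VRK1, lower, where 24.5% and 22.0% of all genes were called in those directions. In 3 genes each VprBP sh value lay above each Control sh value and in 3 genes below, where the groups did not overlap for 42.2% and 37.3% of all genes, and 79.5% in either direction. The share of the 8 genes that changed is therefore near or below that of all genes tested. Their median absolute log2 fold change was 0.63, against 0.92 for all genes.

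**Figure D1:**
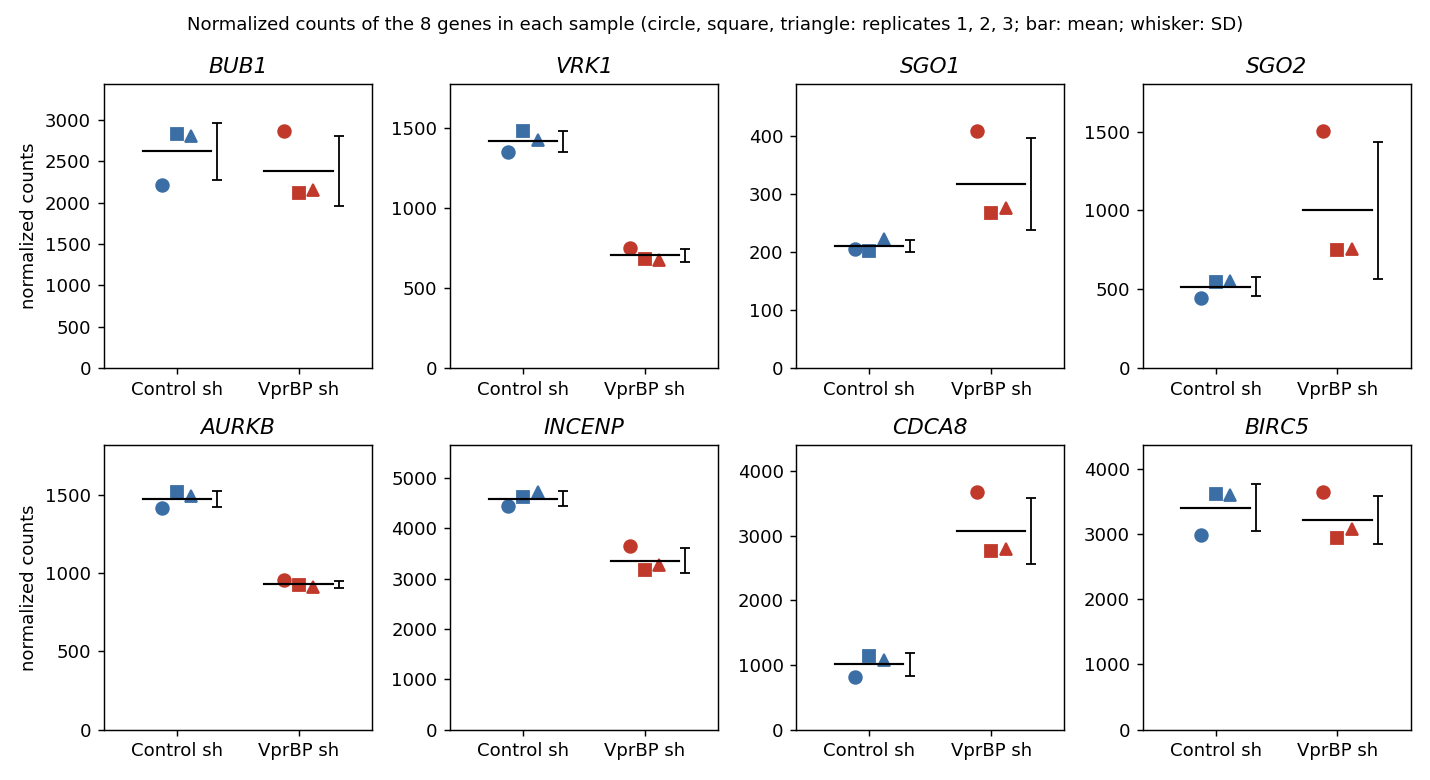
Normalized counts (y axes, from 0) of the 8 genes in the 3 Control sh samples (blue) and the 3 VprBP sh samples (red), with replicates 1, 2 and 3 as circle, square and triangle, the mean as a bar and the SD as a whisker. The groups are separate for VRK1, SGO1, SGO2, AURKB, INCENP and CDCA8 and overlap for BUB1 and BIRC5, and replicate 1 of VprBP sh is the highest VprBP sh sample for every gene.

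Among the kinases that write the mark, VRK1 fell and BUB1 did not change beyond the spread between replicates. VRK1 (ENSG00000100749.9) is on chromosome 14 (hg38) at 96797304 to 96954846, plus strand, with 13 exons in its canonical transcript, and had 1350.3, 1481 and 1424 normalized counts in Control sh replicates 1, 2 and 3 and 754, 685 and 675 in VprBP sh. The highest VprBP sh sample was thus well below the lowest control, and the replicates of each group lay close together. The means were 1418 ± 65.3 and 704 ± 43.0 (SD, n = 3), a log2 fold change of -1.01 (SE 0.09, adjusted p = 5.71e-06 from edgeR). This is a 2.01-fold decrease, so VRK1 stands at the edge of the 2-fold cutoff. Its log2 fold change was -0.80 with scaling by library size alone and -0.98 without Control sh replicate 2, without VprBP sh replicate 3, or with replicates 2 and 3 summed, short of 2-fold but with edgeR adjusted p-values from 3.64e-05 to 0.000351. It also fell just short of 2-fold without VprBP sh replicate 2.

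BUB1 (ENSG00000169679.15), on chromosome 2 at 110637528 to 110678063, minus strand, with 25 exons, had 2219.6, 2829.6 and 2810.1 normalized counts in Control sh and 2865, 2118 and 2158 in VprBP sh. Replicate 1 was the lowest sample of Control sh and the highest of VprBP sh, and the groups overlapped. The means were 2619.8 ± 347 and 2380.2 ± 420.3 (SD, n = 3), a log2 fold change of -0.14 (SE 0.14, adjusted p = 0.379 from edgeR). One library decided this call. Without VprBP sh replicate 1 the log2 fold change was -0.30 (SE 0.11, adjusted p = 0.0368 from edgeR), whereas with library size scaling its sign turned to 0.07 (adjusted p = 0.658).

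Of kinases related to these, HASPIN, which phosphorylates histone H3 beside the shugoshin-bound mark and is the other signal that places the passenger complex, had 312 ± 23.7 and 302 ± 4.56 normalized counts in Control sh and VprBP sh (log2 fold change -0.05, SE 0.12, adjusted p = 0.730 from edgeR). The VRK1 paralogs went the other way from VRK1. VRK2 rose from 229 ± 15.2 to 482 ± 57.7 normalized counts (log2 fold change 1.07, adjusted p = 4.26e-05), and VRK3, a VRK family member regarded as a pseudokinase, from 558 ± 69.0 to 723 ± 74.0 (0.37, adjusted p = 0.0205). BUB1B, which encodes the BUB1-related checkpoint protein BubR1, fell from 2006 ± 246 to 1389 ± 235 (-0.53, adjusted p = 0.00509). TLK1, a kinase of chromatin assembly factors, rose from 626 ± 41.1 to 1908 ± 189 (1.61, adjusted p = 5.4e-07), the largest increase of the list. Of the 14 related kinases listed, 4 rose, 3 fell and 7 did not pass the test, and 2 were called, both upwards. The 7 of 14 that rose or fell and the 14.3% called were both below the 76.4% and 46.4% of all genes.

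Both shugoshin genes rose. SGO1 (ENSG00000129810.15), on chromosome 3 at 20160593 to 20186206, minus strand, with 8 exons, had 206, 202 and 223 normalized counts in Control sh and 409, 268 and 277 in VprBP sh. Every VprBP sh sample was above every control, with replicate 1 well above the other two. The means were 210.4 ± 10.9 and 318 ± 78.8 (SD, n = 3), a log2 fold change of 0.59 (SE 0.18, adjusted p = 0.0127 from edgeR), and without VprBP sh replicate 1 it was 0.37 (adjusted p = 0.0175). An antisense RNA gene, SGO1-AS1, overlaps SGO1 on the opposite strand and was not analysed here, and the use of strand in counting is not given in the sources used here.

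SGO2 (ENSG00000163535.18), on chromosome 2 at 200510008 to 200584096, plus strand, with 9 exons, had 447, 549 and 553 normalized counts in Control sh and 1503, 749 and 753 in VprBP sh. Replicate 1 held about as many counts as the other VprBP sh samples together, and all 3 were above the controls. The means were 516 ± 59.8 and 1002 ± 434 (SD, n = 3), a log2 fold change of 0.95 (SE 0.26, adjusted p = 0.00698 from edgeR). The size of this change rested on that library, as the log2 fold change was 0.54 without it (adjusted p = 0.00227) and 1.12 without replicate 2 or replicate 3 of VprBP sh. The coding gene KCTD18 overlaps the first part of SGO2 on the other strand and ends at position 200519784. The canonical SGO2 transcript starts at 200526207. KCTD18 had 220.5 ± 17.0 and 703 ± 9.50 normalized counts and was called higher (log2 fold change 1.67, adjusted p = 5.66e-07 from edgeR). Its 3 VprBP sh values were 692, 711 and 705. Whether reads of KCTD18 entered the counts of SGO2 was not tested. KCTD18 was chosen after its values were seen.

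The 4 genes of the passenger complex went in different directions, although their proteins act in 1 assembly. CDCA8 (ENSG00000134690.11), on chromosome 1 at 37692481 to 37709719, plus strand, with 10 exons, had 813, 1133 and 1079.9 normalized counts in Control sh and 3669, 2764 and 2787 in VprBP sh. No VprBP sh sample came near the controls. The means were 1008 ± 172 and 3073 ± 516 (SD, n = 3), a log2 fold change of 1.61 (SE 0.15, adjusted p = 7.9e-06 from edgeR), which is 3.04-fold and the largest change of the 8 genes, at rank 5202 of 16756 by absolute log2 fold change. It was called with every scaling, filter, test and left-out replicate tried, with log2 fold changes from 1.46 to 1.82.

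AURKB and INCENP, the kinase and its scaffold, both fell. AURKB (ENSG00000178999.13), on chromosome 17 at 8204733 to 8210600, minus strand, with 9 exons, had 1414, 1515 and 1490.4 normalized counts in Control sh and 954, 922 and 911 in VprBP sh. The groups were well apart, with means of 1473 ± 52.8 and 929 ± 21.9 (SD, n = 3) and a log2 fold change of -0.67 (SE 0.08, adjusted p = 4.86e-05 from edgeR). INCENP (ENSG00000149503.13), on chromosome 11 at 62123998 to 62153169, plus strand, with 19 exons, had 4429.9, 4619 and 4708 normalized counts in Control sh and 3639, 3161 and 3259 in VprBP sh. Its means were 4586 ± 142 and 3353 ± 252 (SD, n = 3), a log2 fold change of -0.45 (SE 0.08, adjusted p = 0.000686 from edgeR). Neither gene reached 2-fold, and both fell under every alternative tried, AURKB by 0.45 to 0.79 and INCENP by 0.24 to 0.57 on the log2 scale. AURKA, which encodes the Aurora kinase of spindle poles, fell from 3897 ± 581 to 2075 ± 491 normalized counts (-0.91, adjusted p = 0.000712), while AURKC, the Aurora kinase known mainly from germ cells, had means of 14.4 and 17.2 normalized counts (adjusted p = 0.544).

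BIRC5 (ENSG00000089685.15), on chromosome 17 at 78214186 to 78225636, plus strand, with 4 exons, had 2988, 3621 and 3603 normalized counts in Control sh and 3639.8, 2944 and 3079 in VprBP sh. The groups overlapped, with replicate 1 again the lowest in Control sh and the highest in VprBP sh. The means were 3404 ± 360.2 and 3221 ± 369 (SD, n = 3), a log2 fold change of -0.08 (SE 0.11, adjusted p = 0.523 from edgeR), which was 0.13 with library size scaling (adjusted p = 0.317).

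**Figure D2:**
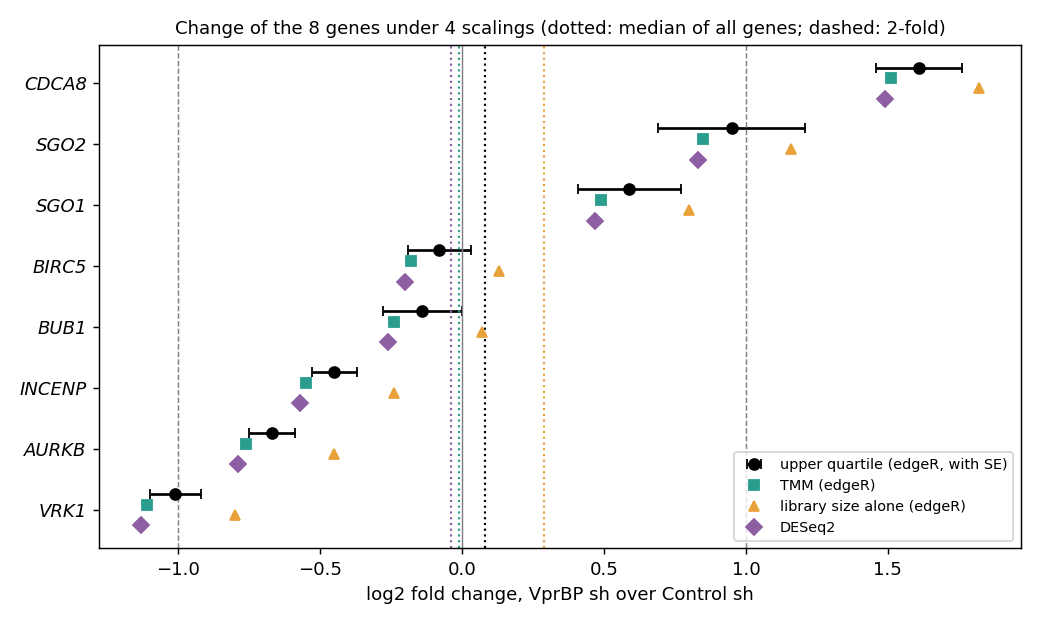
Log2 fold change (x axis) of each of the 8 genes in VprBP sh over Control sh with upper quartile scaling (black, whisker of 1 standard error), TMM (green), library size alone (orange) and DESeq2 (purple), with the median of all genes under each scaling as a dotted line. The scalings shift all genes together, CDCA8, SGO2 and SGO1 stay above 0 and VRK1, AURKB and INCENP below it, while BUB1 and BIRC5 change sign with library size alone.

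Scaling moved these values together with all other genes. With upper quartile scaling the median of all 16756 log2 fold changes was 0.08, and it was 0.29 with library size alone, -0.01 with TMM and -0.04 with DESeq2. Measured from that median, BUB1 was at -0.22 and BIRC5 at -0.16 with library size alone, and with upper quartile scaling at -0.22 and -0.16 as well. The order of the 8 genes by fold change, from VRK1 to CDCA8, was the same under all 4.

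Levels can be compared between genes only per length, and normalized counts were therefore divided by the length of the canonical transcript in kilobases. By this measure BIRC5 was the highest in Control sh, with 1322 ± 140.0 normalized counts per kilobase (SD, n = 3), followed by AURKB with 1185 ± 42.5 and INCENP with 1115 ± 34.5, and neighbours in this order overlapped. VRK1 (853 ± 39.3), BUB1 (696 ± 92.2) and CDCA8 (425 ± 72.4) came next without overlap, and SGO2 (115 ± 13.3) and SGO1 (68.5 ± 3.55) were far lower. In VprBP sh, CDCA8 was the highest with 1296 ± 218 normalized counts per kilobase, overlapping BIRC5 with 1251 ± 143. INCENP (815 ± 61.4), AURKB (747 ± 17.6) and BUB1 (633 ± 112) followed, with VRK1 at 424 ± 25.9, SGO2 at 224 ± 96.9 and SGO1 at 103.5 ± 25.7. INCENP and AURKB were barely apart in VprBP sh, at 768 and above and at 767 and below, and BUB1 overlapped AURKB.
CDCA8 thus went from the sixth place to the first, VRK1 from the fourth to the sixth, and the shugoshins kept the lowest 2 places in both groups, by canonical transcript length. These places depend on the transcript model. With the summed length of all annotated exons in place of the canonical transcript, INCENP was the highest in Control sh with a mean of 1029.6 normalized counts per kilobase, above BIRC5 with 892, and CDCA8 with 419 stood next to BUB1 with 416. CDCA8 was again first in VprBP sh, with 1277. VRK1, whose exons add up to 31679 bases against 1663 in the canonical transcript, was then the lowest of the 8 in both groups, with 44.8 and 22.2, below SGO2 and SGO1.

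**Figure D3:**
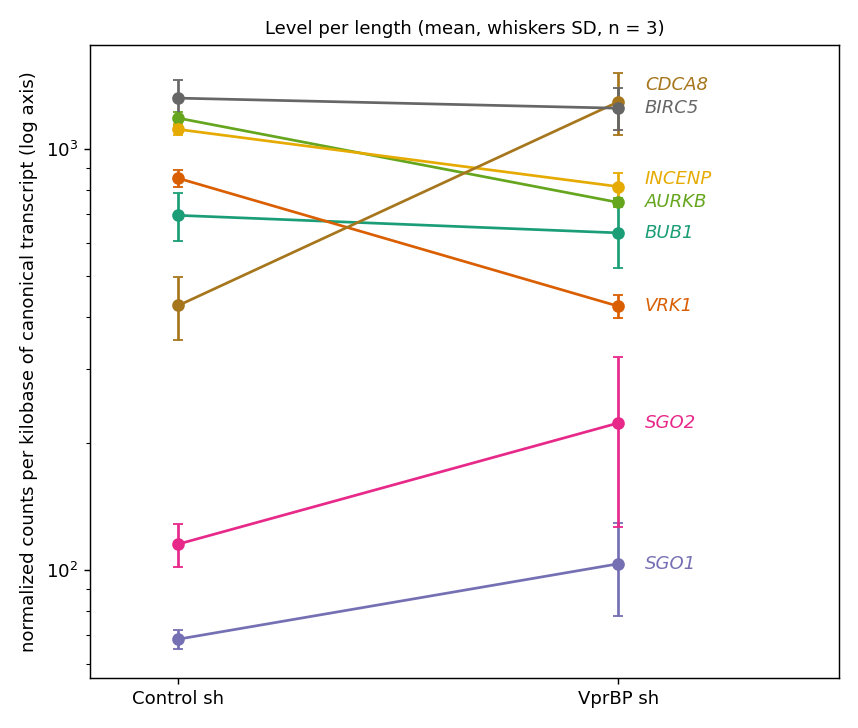
Normalized counts per kilobase of canonical transcript (y axis, log scale) of the 8 genes as means with SD whiskers (n = 3) in Control sh and VprBP sh, joined by a line per gene. CDCA8 climbs from 425 to 1296 normalized counts per kilobase and crosses BUB1, VRK1, INCENP, AURKB and BIRC5, while SGO1 and SGO2 stay below the other 6 genes.

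Ratios within a sample do not depend on the scaling between samples. With 3 samples against 3, an exact two-sided permutation test cannot give a p-value below 0.1, and 28 ratios among the 8 genes were compared. The log2 ratio of CDCA8 to BIRC5, which bind each other in the passenger complex, went from -1.76 ± 0.10 in Control sh to -0.07 ± 0.08 in VprBP sh (SD, n = 3, exact permutation p = 0.1, 0.104 after adjustment over the 28 ratios). The log2 ratio of INCENP to CDCA8 went from 2.20 ± 0.22 to 0.14 ± 0.13, and that of AURKB to CDCA8 from 0.56 ± 0.21 to -1.71 ± 0.20, with the same exact p-values. The log2 ratio of AURKB to INCENP went from -1.64 ± 0.03 to -1.85 ± 0.08, again without overlap. For the kinases that write the mark, the log2 ratio of BUB1 to VRK1 went from 0.88 ± 0.14 to 1.74 ± 0.16. BUB1 to BIRC5 had -0.38 ± 0.04 and -0.44 ± 0.09 and was the ratio whose groups overlapped (exact permutation p = 0.4). The log2 ratio of BUB1 to CDCA8 had the smallest spread in VprBP sh, with 1.38 ± 0.06 and -0.37 ± 0.01, although replicate 1 stood apart in both genes.

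Because the genes follow the cell cycle, each was also set against the median of a list of 31 genes, named cycling G2/M genes here, in the same sample. Of those 31 genes 6 rose, 9 fell and 16 did not pass the test, and the median of their log2 fold changes was -0.06. The list also holds the transcription regulators MYBL2, LIN9, LIN52 and LIN54, so it is not limited to G2/M transcripts. LIN9 and LIN54 rose, and MYBL2 and LIN52 did not pass the test. The 48.4% that rose or fell and 9.68% called were below the shares of all genes. MKI67, the proliferation marker Ki-67, fell (log2 fold change -0.73, SE 0.13, adjusted p = 0.000546 from edgeR), and TOP2A, a DNA topoisomerase of dividing cells, had -0.27 (adjusted p = 0.0575). Relative to this median, CDCA8 went from -1.14, -0.97 and -0.98 in Control sh to 0.62, 0.55 and 0.64 in VprBP sh on the log2 scale, a difference of 1.63 (exact two-sided permutation p = 0.1, 0.114 after adjustment over the 8 genes).
VRK1 went from -0.41, -0.58 and -0.58 to -1.67, -1.46 and -1.40, a difference of -0.99. The differences of SGO2, SGO1, AURKB and INCENP were 0.90, 0.59, -0.64 and -0.43, each without overlap and with the same exact p-values. BUB1 had a difference of -0.12, also without overlap, which became 0.01 when the mean of the 31 genes replaced their median. BIRC5 had -0.06, with overlap (exact permutation p = 0.4). Since the median of the 31 genes hardly differed between the groups, these differences must lie near the fold changes given above and add no separate evidence.

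**Figure D4:**
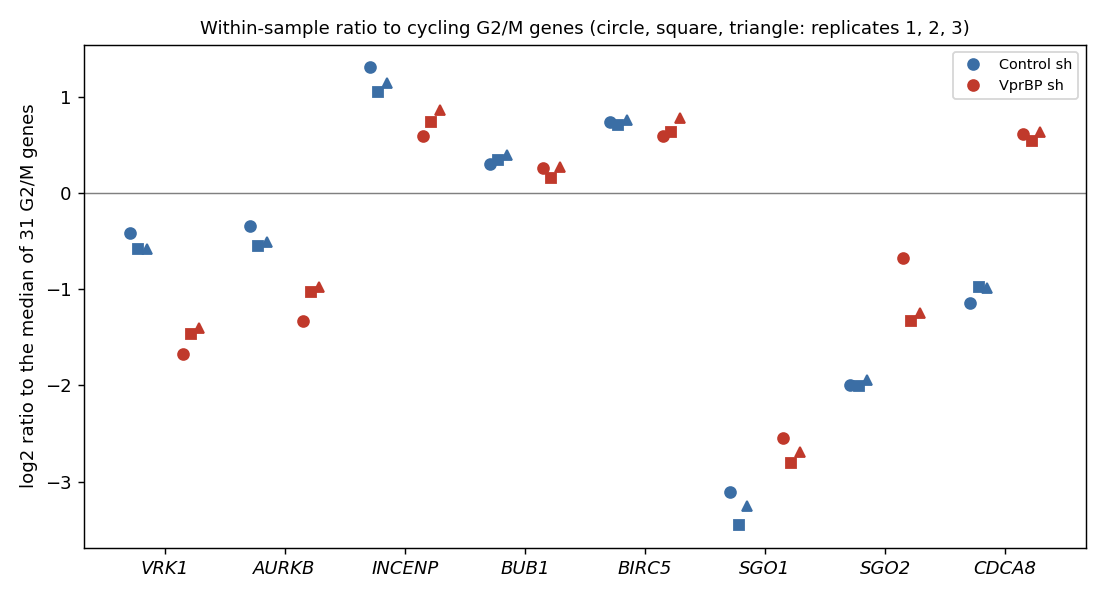
Log2 ratio (y axis) of each of the 8 genes to the median of 31 cycling G2/M genes in the same sample, for Control sh (blue) and VprBP sh (red), with replicates 1, 2 and 3 as circle, square and triangle. CDCA8 lies at -1.14 to -0.97 in Control sh and at 0.55 to 0.64 in VprBP sh, whereas BIRC5 lies between 0.60 and 0.78 in all 6 samples.

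The genes around the 8 were counted in the same way. Of 15 checkpoint and kinetochore partners of BUB1, 6 rose, 6 fell and 3 did not pass the test, and 4 were called upwards and 2 downwards, with a median log2 fold change of 0.11. The shares, 80.0% that rose or fell and 40.0% called, were near the 76.4% and 46.4% of all genes. BUB3, the adaptor that carries BUB1 to kinetochores, had 2482 ± 299.6 and 2682 ± 229 normalized counts (log2 fold change 0.11, adjusted p = 0.368 from edgeR). Within the NDC80 complex, which binds microtubules, NUF2 fell from 1325 ± 204 to 522.7 ± 106 (-1.35, adjusted p = 4.53e-05) while SPC25 rose from 197 ± 49.6 to 667 ± 87.5 (1.75, adjusted p = 1.89e-05). ZW10, of the complex that brings dynein to kinetochores, rose (1.54, adjusted p = 3.07e-06), and MAD2L2, a MAD2-like adaptor with roles in DNA repair, fell (-1.04, adjusted p = 3.86e-05).
Of 27 centromere proteins, 15 rose, 5 fell and 7 did not pass the test, against 40.4% and 36.0% of all genes tested that rose and fell. Their median log2 fold change was 0.50, against 0.08 for all genes, and 25.9% were called, against 46.4%. HJURP, the chaperone that deposits the centromeric histone CENPA, rose from 394 ± 19.6 to 1821 ± 356 normalized counts (2.21, adjusted p = 5.4e-07 from edgeR), and CENPU rose from 496 ± 119 to 1390.1 ± 151 (1.48, adjusted p = 2.95e-05). CENPH, like CENPU a protein of the inner kinetochore, fell from 656 ± 16.6 to 319 ± 31.3 (-1.04, adjusted p = 1.72e-05).

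Shugoshins protect cohesin with the phosphatase PP2A. Of 15 genes listed for PP2A, PP1 and their regulators, 9 rose, 3 fell and 3 did not pass the test, with a median log2 fold change of 0.23. This is 80.0% that rose or fell, near the 76.4% of all genes, and 13.3% called, below 46.4%. PPP2R1B, a scaffold subunit of PP2A, rose from 647 ± 24.0 to 1922 ± 349 normalized counts (1.57, adjusted p = 3.08e-06 from edgeR), and PPP1R7, a regulator of PP1, rose as well (1.17, adjusted p = 8.28e-06). Of 15 genes of cohesin and its regulators, 5 rose, 6 fell and 4 did not pass the test, so that 73.3% rose or fell, and 3 of the 15 were called. SMC1A, of the cohesin ring, fell from 6832 ± 83.5 to 3272 ± 154 (-1.06, adjusted p = 1.03e-06), whereas STAG1, a cohesin subunit, rose (1.04, adjusted p = 1.68e-05), as did MAU2, which helps to load cohesin (1.15, adjusted p = 7.32e-06).
Among 21 tested partners of the passenger complex in division, 8 rose, 7 fell and 6 did not pass the test, so that 71.4% rose or fell and 23.8% were called. CBX5, which encodes HP1 alpha, a heterochromatin protein that binds INCENP, rose from 2188 ± 256 to 5774 ± 258 normalized counts (1.40, adjusted p = 1.1e-06 from edgeR), and CUL3, the ubiquitin ligase scaffold that moves Aurora B off chromosomes, rose (1.36, adjusted p = 1.52e-06). KLHL21, an adaptor of CUL3 for Aurora B, fell (-1.20, adjusted p = 0.000133), and TPX2, the spindle activator of Aurora A, fell from 7790 ± 872 to 3197 ± 594 (-1.29, adjusted p = 1.91e-05).
The cycling G2/M genes with the largest decreases were CDC25B, a phosphatase that activates CDK1, which fell from 15931 ± 296 to 3589 ± 134 (-2.15, adjusted p = 1.19e-08), and CKS1B, a CDK subunit (-1.58, adjusted p = 1.68e-07).

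**Figure D5:**
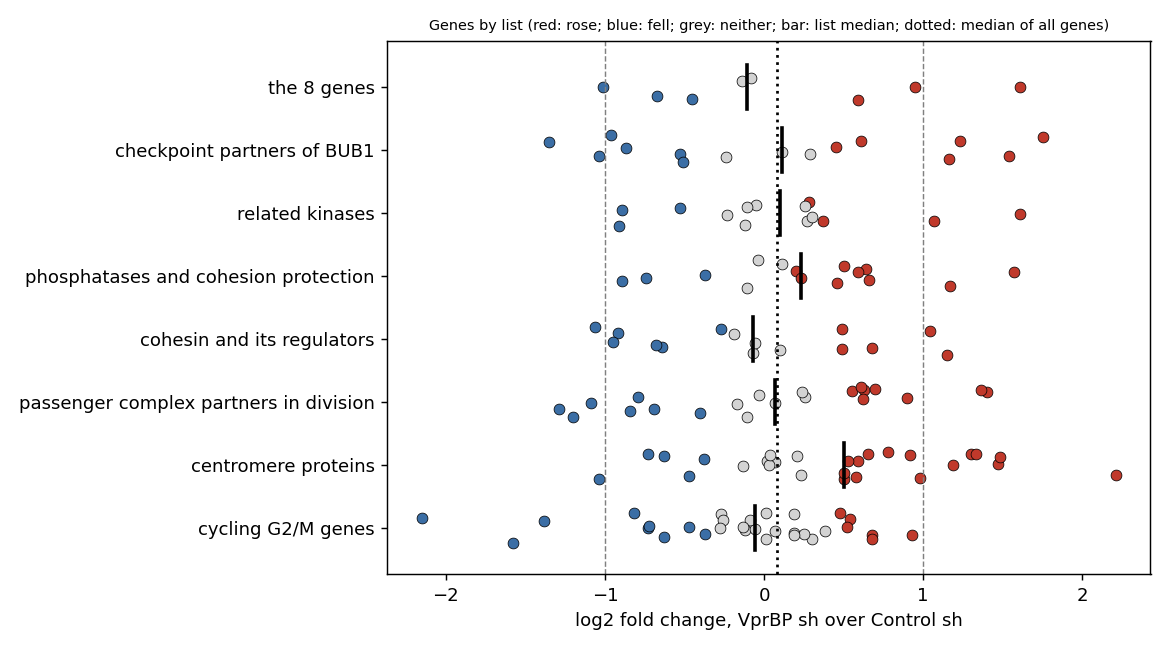
Log2 fold change (x axis) of each tested gene in the 8 genes and the 7 lists around them, with genes that rose in red, that fell in blue and that did not pass the test in grey, list medians as bars and the median of all genes as a dotted line. Every list has genes on both sides of 0, and the median of the centromere proteins, 0.50, lies furthest from that of all genes.

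To find genes with a pattern most like that of the kinases, the root mean square difference between log2 profiles over the 6 samples, each centred on its mean, was computed for the 12816 genes whose higher group mean reached 100 normalized counts. The nearest to BUB1 were KLHL9 (0.0429), ANAPC4 (0.0436) and CPSF2 (0.0458), and BIRC5 was at 0.0643. KLHL9 is another CUL3 adaptor for Aurora B, ANAPC4 a subunit of the anaphase promoting complex and CPSF2 a factor of mRNA 3′ end processing. The nearest to VRK1 were XPO7 (0.00768), PUS7L (0.0257) and GNA13 (0.0295), while AURKB, the nearest of the 8 genes, was at 0.176. XPO7 encodes a nuclear transport receptor, PUS7L a protein of the pseudouridine synthase family and GNA13 a G protein subunit. With 6 samples in 2 groups, these distances rest mainly on the size of the difference between groups.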

How the data were processed

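RNA-seq of 6 samples, 3 Control sh and 3 VprBP sh, was analysed, with groups and replicate numbers taken from the sample titles. The authors aligned single-end reads with STAR to hg38 and used Partek Flow, also named in the submitters' processing notes, for quantification. They deposited estimated counts per gene, neither normalized nor pooled, and no gene in the table sums to less than 10. The labels name a SMARTER kit and the study's methods a strand-specific KAPA kit. Of the values, 59.4% are whole numbers, and all were rounded before testing.

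The 8 genes and the gene lists were chosen with earlier results of these data known. The test was edgeR 4.0.16 (R 4.3.3), quasi-likelihood, with upper quartile factors (0.75), its filter on low counts (minimum 10), no replicate block and Benjamini-Hochberg adjustment over 16756 genes. The study itself tested with Partek's Gene Specific Algorithm, which was not run. Where a symbol occurred more than once, the row with most counts was used. Normalized counts are counts divided by the upper quartile size factor of the sample, relative to the mean over samples. Standard errors were derived from log2 fold change and F. Ratios used log2(normalized count + 1) and exact permutation tests in scipy 1.17.1. Positions, overlaps and transcript lengths are from GENCODE 44, which gives the 8 genes the same ends as the table, after 1 was taken from the end coordinate of the table. The floor of 3 counts covers counting error only.

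Genes named outside the 8 are DCAF1, MKI67, TOP2A, paralogs, BUB3, KCTD18, RBM15B, MYBL2, LIN9, LIN52, LIN54, markers and the nearest profiles. Also named are the 2 largest increases and 2 largest decreases called in each list whose higher group mean reached 100 normalized counts. BUB3, KCTD18, RBM15B, MYBL2, LIN9, LIN52 and LIN54 lie outside the rule and were chosen after their values were seen. Alternatives were TMM, library size, DESeq2 1.42.0, limma-voom (limma 3.58.1), 2 other filters, a replicate block, leaving out each sample, summing replicates 2 and 3, and other pseudocounts (0 and 5) or a mean reference for the ratios. The tests were first tried on simulated counts in which few genes changed, equally in both directions, unlike in these data. That trial does not bear on the scaling or the error rate here.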

Additional observations from a re-analysis of the deposited data

How the results depend on the processing

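CDCA8, SGO1 and SGO2 rose and VRK1, AURKB and INCENP fell under every alternative, including each left-out sample. The genes past 2-fold were CDCA8 and VRK1, but CDCA8 and SGO2 with library size alone, with replicates 2 and 3 summed, and without VprBP sh replicate 2 or 3, and CDCA8 alone without Control sh replicate 2, so that leaving out a sample gave 1 to 2 such genes. BUB1 ranged from -0.30 to -0.07 with a sample left out, passing the test only without VprBP sh replicate 1 (adjusted p = 0.0368 from edgeR), and was 0.07 with library size alone, where BIRC5 was 0.13. DCAF1 was -0.37 with library size alone and -0.46 with replicates 2 and 3 summed, neither past the threshold. Relative to the mean of the G2/M genes, BUB1 was 0.01 and BIRC5 0.07. A minimum of 10 counts in every sample left 4690 genes called, 2694 higher and 1996 lower, among 13103 tested.

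No pairing of the samples by replicate number was seen, as the correlations of deviations from the group means for pairs 1, 2 and 3 were -0.0644, 0.0162 and -0.0527. All genes tested weighed equally in these correlations, low counts included, so that noise could hide a pairing. With a replicate block, 7686 genes were called in place of 7778, CDCA8 had 1.61 and VRK1 -1.01, and the same 6 of the 8 genes passed the test. With 3 samples a group, ratios could not pass a threshold in the exact test, which says nothing about their stability. Replicates 2 and 3 were often the closer pair, as for BUB1 with 2829.6 and 2810.1 normalized counts in Control sh and 2118 and 2158 in VprBP sh. For SGO1 in Control sh, replicates 1 and 2 were closer, with 206 and 202. Whether replicates 2 and 3 shared a culture was not tested.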
